A study of Mus musculus with 6 samples.

Results

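The miR-99/100 and miR-125 families were followed in mouse iBN cells in which the myeloid transcription factor PU.1 could be induced. Their members were taken as every mature microRNA named for the hairpins miR-99a, miR-99b, miR-100, miR-125a and miR-125b, whichever arm or copy. This gave 11 of the 1915 mature names in the deposited count table, of which 10 had at least 1 read. For miR-125b-5p, which is listed for both of its hairpins, the entry with more reads was kept. The induced group held 3 small RNA libraries of cells kept for 72 hours in 1000 ng/ml doxycycline, and the uninduced group held 3 libraries of the same line without induction, each numbered as trials 1, 2 and 3. All 6 came from cells that the labels call granulocyte-macrophage progenitors, that carry a PU.1-inducible system, and that grew in suspension with GM-CSF. Doxycycline-treated cells lacking the inducible system were not analysed here, nor was the level of PU.1. The labels do not say whether the line was a clone or whether trials were separate cultures, so that the p-values rest on variation among libraries that may be only technical. Because whole cultures were sequenced, fewer cells of a type and less RNA per cell cannot be told apart.

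MicroRNAs are cut from hairpin precursors as short RNAs that repress messenger RNAs, and the bases from position 2 to 8 at the 5′ end, the seed, choose most targets. The miR-99/100 and miR-125 families are ancient neighbours: vertebrate genomes carry them in paralogous clusters, each with a let-7 microRNA between a miR-99/100 and a miR-125 hairpin. miR-125a and miR-125b are known in blood formation for their expression in stem and progenitor cells, where raised miR-125b expands and can transform myeloid cells in mice. miR-99 and miR-100 are known to target mTOR and are often made together with miR-125.

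The mature 5p arms are shown because their seeds define the families and because single-base differences decide which reads can be told apart. They are RefSeq sequences on GRCm38.p6, given 5′ to 3′ with the seed in capitals and the prefix mmu for mouse.
mmu-miR-99b-5p: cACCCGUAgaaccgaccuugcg
mmu-miR-99a-5p: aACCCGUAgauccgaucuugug
mmu-miR-100-5p: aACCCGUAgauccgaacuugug
mmu-miR-125a-5p: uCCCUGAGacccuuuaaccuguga
mmu-miR-125b-5p: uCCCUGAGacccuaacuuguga
mmu-miR-351-5p: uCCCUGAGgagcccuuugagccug
mmu-let-7e-5p: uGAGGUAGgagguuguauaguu
Counting from the 5′ end, miR-99a-5p and miR-100-5p differed by 1 substitution, U16A, so the reads of these microRNAs are told apart by a base. miR-99b-5p differed from miR-100-5p by 4 substitutions, C1A, A11U, C16A and C21U. miR-125a-5p and miR-125b-5p shared their first 13 bases and were 3 edits apart. miR-351-5p is no member, but it shares the miR-125 seed and its first 8 bases with miR-125a-5p, from which it was 7 edits apart. For the 6 members with at least 100 reads, no other name had counts within 1% of theirs in every library.

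All arms of the miR-99b/miR-125a locus came from 692 bases of chromosome 17 (chr17:17830188-17830879, plus strand, GRCm38), with let-7e between miR-99b and miR-125a. In GENCODE, miR-99b and let-7e lay in an intron of both transcripts of Spaca6, a sperm acrosome gene, that cover them, and miR-125a overlapped an exon of 1 of 3 such transcripts. The miR-125a hairpin is printed to show how its arms sit, with both mature arms in capitals.
miR-125a hairpin: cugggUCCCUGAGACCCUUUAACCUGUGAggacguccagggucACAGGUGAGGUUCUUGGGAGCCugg
The miR-99a/miR-125b-2 locus (chr16:77598936-77646343, plus strand) spread over 47408 bases, and all of its hairpins lay in introns of Mir99ahg. The miR-100/miR-125b-1 locus (chr9:41531425-41582002, plus strand) spread over 50578 bases, and all of its hairpins lay in introns of 3110039I08Rik, which RefSeq calls Mir100hg. miR-125b-2 also overlapped an exon of C130023A14Rik and miR-125b-1 an exon of Gm28119.

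**Figure D1:**
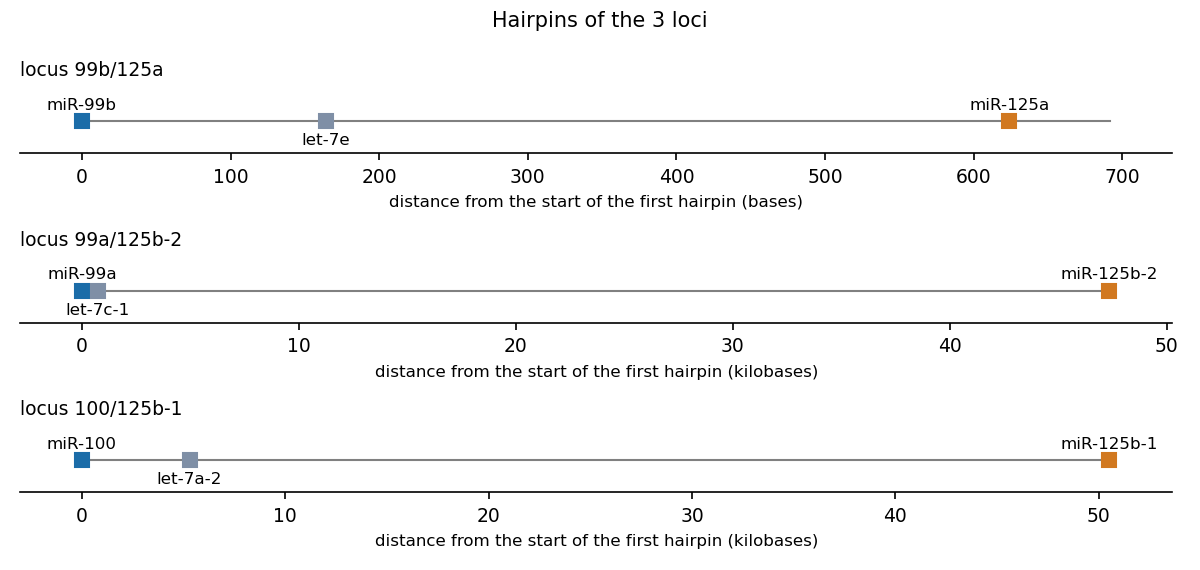
Hairpin order in the 3 loci, with the distance from the start of the first hairpin on the horizontal axis, in bases for the miR-99b/miR-125a locus and in kilobases for the others. Squares mark hairpin starts: miR-125a started 624 bases after miR-99b, whereas miR-125b-2 and miR-125b-1 started 47337 and 50501 bases after miR-99a and miR-100.

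With 1 entry kept per name, the libraries held 8697384 to 13946613 reads, so that a count of 0 in a library allowed a level (CPM, reads relative to the library's total) of up to 0.215 to 0.345, a limit that covers counting error only. CPM values given here are scaled by TMM factors. The blood markers listed for the check of the cell label, miR-142a, miR-223, miR-155 and miR-146a, together made 75518 to 92911 CPM in induced and 73519 to 92432 CPM in uninduced libraries. Most of this was miR-142a-5p, at 53789 to 76326 CPM over the 6 libraries, while miR-146a-5p had 4.22 to 6.73 CPM. The listed erythroid, muscle and liver markers each summed to less than 1 CPM. The lymphoid marker had 25.4 to 44.9 CPM and the neural markers summed to 33.7 to 62.6 CPM over the 6 libraries. Of the lymphoid and neural markers 1 and 2 were tested. In either edgeR fit 0 were called, against 6.1% of all tested with the group alone and 21.7% with the trial as a block. Of 7 epithelial markers 5 were tested. With the group alone 3 were higher in induced cells, against 3.43% of all tested microRNAs, and with the trial as a block 4, against 10.7%. The 7 together made 81.1 to 101 CPM in induced and 32.2 to 39.8 CPM in uninduced libraries. Their part in the members' results was not tested.

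The miR-99b/miR-125a locus supplied between 99.04% and 99.68% of the member reads of each library. miR-99b-5p was the most abundant member at rank 61 of all names by total reads, and miR-125a-5p followed at rank 95. In uninduced cells miR-100-5p (6.77 ± 0.48 CPM), miR-99b-3p (5.35 ± 0.82 CPM), miR-125a-3p (4.44 ± 1.81 CPM) and miR-125b-5p (4.14 ± 1.20 CPM; SD, n = 3 each) came next. miR-100-5p lay above miR-99b-3p in every uninduced library, while the ranges of miR-99b-3p, miR-125a-3p and miR-125b-5p overlapped. In induced cells miR-99b-3p (6.63 ± 3.01 CPM), miR-125a-3p (5.65 ± 3.12 CPM) and miR-100-5p (5.59 ± 1.35 CPM) overlapped, and miR-125b-5p (2.26 ± 0.24 CPM; SD, n = 3 each) lay below miR-99b-3p and miR-100-5p but overlapped miR-125a-3p. The rarest arms were miR-125b-2-3p with 0.69 ± 0.41 CPM in induced and 1.14 ± 0.29 CPM in uninduced cells, miR-125b-1-3p with 0.55 ± 0.26 and 0.77 ± 0.30 CPM in induced and uninduced cells, and miR-99a-5p with 0.14 ± 0.15 and 0.32 ± 0.23 CPM in induced and uninduced cells (SD, n = 3 each). Libraries of this kind capture different microRNAs with unequal efficiency, so this is an order of reads.

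Of the 11 members, 7 had enough reads to be tested, and 0 passed edgeR's quasi-likelihood test at an adjusted p of 0.05 with the group alone, against 6.1% of all 525 tested microRNAs (3.43% higher and 2.67% lower in induced cells). By an unadjusted edgeR p under 0.05 there was 1, miR-125b-5p, against 20.8% of all tested. DESeq2 and limma-voom also passed 0. With the trial as a block, 1 member was higher and 1 lower in induced cells, miR-125a-5p and miR-125b-5p, against 10.7% and 11.0% of all tested, or 21.7% in either direction. A share of 2 in 7 is near that background, so it is not a result about the families as a whole. The median log2 change of the 7 tested members was 0.31 and that of all tested microRNAs 0.02; of the 7, 4 were above 0 and 3 below. All 4 above 0 were the arms of the miR-99b/miR-125a locus.

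miR-99b-5p, the main arm of its hairpin, had 2118, 1904 and 1163 CPM in the induced libraries of trials 1, 2 and 3, against 1631, 1084 and 1125 CPM in the uninduced ones. Induced cells were higher in each trial, but the groups overlapped, because induced trial 3 lay below uninduced trial 1 and only slightly above its own partner. The log2 fold change was 0.43 (SE 0.23, n = 3 per group, 95% interval -0.09 to 0.95) with an edgeR adjusted p of 0.326, and 0.41 (SE 0.13) with a blocked edgeR adjusted p of 0.0569. Within trials the log2 differences were 0.38, 0.81 and 0.05. Without trial 1 the blocked fit gave 0.43 (edgeR adjusted p = 0.0312), the only alternative run in which miR-99b-5p passed, and without trial 2 it gave 0.21 (edgeR adjusted p = 0.221). With the group alone, leaving out 1 library at a time gave 0.26 to 0.63, lowest without induced replicate 1.

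miR-125a-5p, the main arm of the other end of the locus, had 693, 600 and 320 CPM in induced trials 1, 2 and 3, against 449, 396 and 283 CPM in the uninduced libraries. Trial 3 was lowest in both groups, so the groups overlapped although induced cells were higher within every trial, by 0.62, 0.60 and 0.18 on the log2 scale. The log2 fold change was 0.51 (SE 0.27, n = 3 per group, 95% interval -0.09 to 1.12; edgeR adjusted p = 0.32), and it was 0.29 without induced replicate 1 and 0.33 without uninduced replicate 3. With the trial as a block it was 0.47 (SE 0.10, 95% interval 0.24 to 0.69; blocked edgeR adjusted p = 0.00687). In the blocked fits without trials 1, 2 and 3 the adjusted p of edgeR was 0.0649, 0.0873 and 0.0587, so the call needed all trials. Being higher in 3 of 3 trials, as miR-99b-5p and miR-125a-5p were, was shared by 29.0% of all tested microRNAs.

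The 3p arms of the locus, the strands usually discarded from the duplex, were rare. miR-99b-3p had 9.80, 6.28 and 3.82 CPM in induced libraries against 5.44, 6.11 and 4.49 CPM in uninduced ones, and miR-125a-3p had 8.55, 6.05 and 2.35 CPM against 6.51, 3.22 and 3.57 CPM. For both, induced cells were higher in trials 1 and 2 and lower in trial 3. Their log2 fold changes, 0.31 (SE 0.32) and 0.34 (SE 0.44), did not pass, and both became negative without induced replicate 1, at -0.10 and -0.11. The 3p arm made up 0.372% ± 0.0765 of the miR-99b reads in induced and 0.430% ± 0.118 in uninduced cells, and 0.982% ± 0.246 and 1.16% ± 0.319 of the miR-125a reads (SD, n = 3 each), differences smaller than the spread between libraries.

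miR-125b-5p, the paralogue known to transform myeloid cells when raised in mice, was lower in induced cells in the blocked fit. It had 2.49, 2.02 and 2.28 CPM in induced libraries, from 30, 18 and 31 reads, against 4.16, 5.33 and 2.93 CPM in uninduced libraries, from 39, 48 and 32 reads. Every induced library was below every uninduced one, which made it the only 1 of the 7 whose groups did not overlap, against 27.6% of all tested microRNAs (16.0% higher and 11.6% lower in induced cells). It was also lower in 3 of 3 trials, as were 29.5% of all tested. The log2 fold change was -0.85 (SE 0.28, n = 3 per group, 95% interval -1.47 to -0.23; edgeR adjusted p = 0.112) and, with the trial as a block, -0.82 (SE 0.26; blocked edgeR adjusted p = 0.0393). Leaving out trials 1, 2 and 3 gave blocked edgeR adjusted p-values of 0.114, 0.266 and 0.122, while the group-only fit passed without uninduced replicate 3 (edgeR adjusted p = 0.046). These reads cannot be assigned to 1 of the 2 hairpins, whose 3p arms differ and thus mark the copy.

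Each copy's 3p arm was near the limit of this depth. miR-125b-2-3p, from chromosome 16, had 10, 9 and 3 reads in induced against 13, 11 and 9 reads in uninduced libraries, with a log2 fold change of -0.79 (SE 0.50; edgeR adjusted p = 0.41) that was -0.35 without induced replicate 3. miR-125b-1-3p, from chromosome 9, had 3, 6 and 10 reads against 6, 10 and 6 reads and was too rare to test. Its ratio of summed reads per total was 0.742 (95% exact interval 0.380 to 1.44, counting error only). Both copies therefore gave reads in both groups, and the interval of neither excludes a decrease as large as that of miR-125b-5p. The 3p arms together were 35.1% ± 8.99 of the miR-125b reads in induced and 31.7% ± 1.18 in uninduced cells (SD, n = 3 each), far above the 3p share of the miR-125a hairpin. The induced libraries of trials 1, 2 and 3 had 30.2%, 45.5% and 29.5%, so the higher induced mean came from trial 2. Only the kept entry of miR-125b-5p is counted here, and the share would be lower if reads had been split between its 2 entries.

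miR-100-5p had 5.56, 6.95 and 4.26 CPM in induced libraries against 7.05, 6.22 and 7.05 CPM in uninduced ones, lower in trials 1 and 3 and higher in trial 2. Its log2 fold change of -0.29 (SE 0.22, n = 3 per group, 95% interval -0.79 to 0.21) had an edgeR adjusted p of 0.508, and it was -0.48 without induced replicate 2 and -0.16 without induced replicate 3. miR-99a-5p had 0, 1 and 4 reads in induced and 3, 5 and 1 reads in uninduced libraries, a ratio of 0.477 (95% exact interval 0.126 to 1.59). miR-100-3p had 1 read, in induced trial 2, and miR-99a-3p had 0 reads in any library. miR-99a-5p, a base away from miR-100-5p, had 14 reads in all against 386, so its level is the least certain of the 5p arms.

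**Figure D2:**
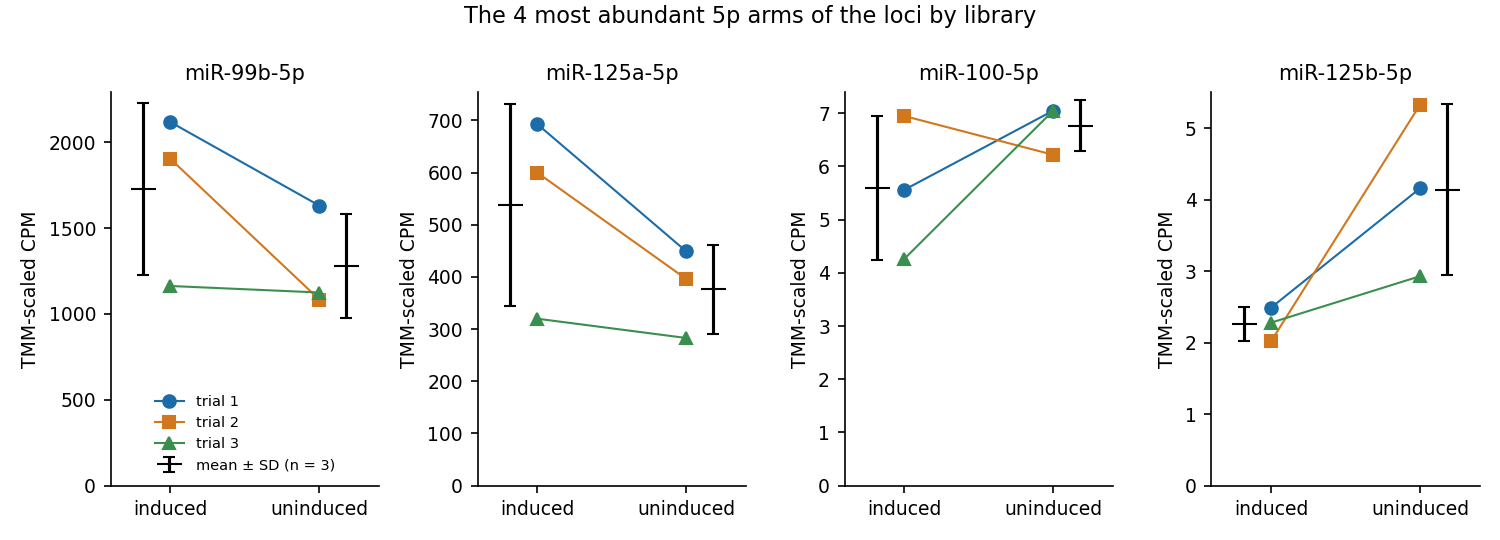
TMM-scaled CPM (vertical axes, from 0) of the most abundant 5p arms in induced and uninduced libraries; coloured lines join the libraries of a trial and black bars give mean ± SD (n = 3). miR-99b-5p and miR-125a-5p slope down to uninduced in every trial, miR-125b-5p slopes up in every trial, and miR-100-5p has no common direction.

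**Figure D3:**
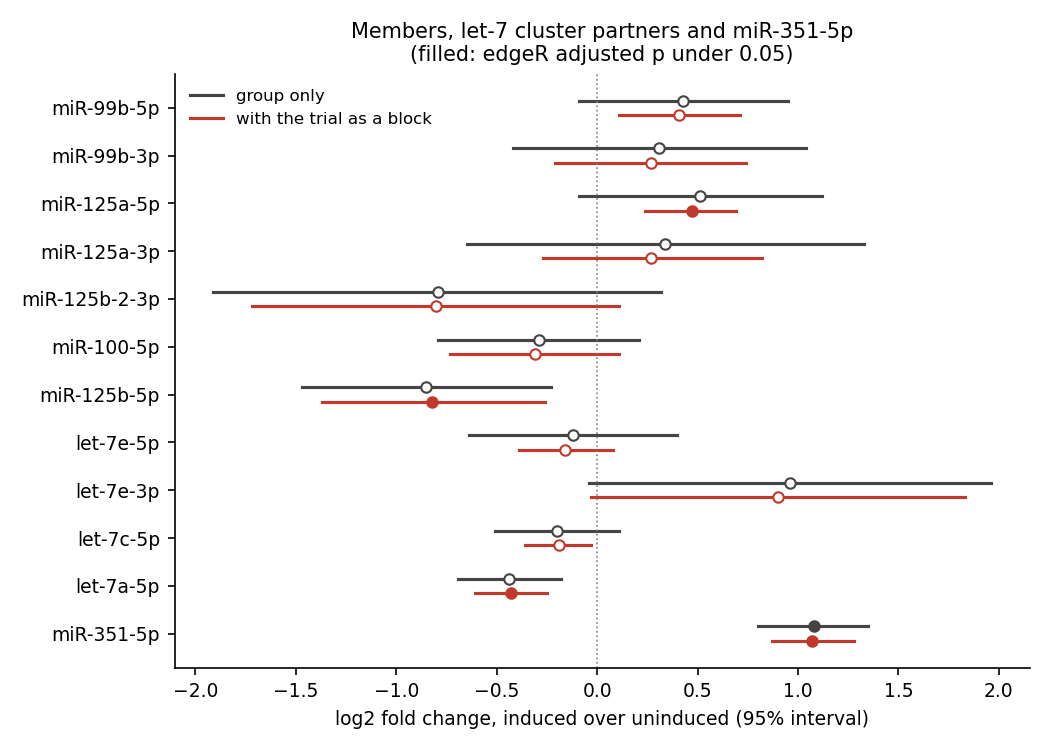
Log2 fold change of induced over uninduced cells (horizontal axis) with 95% intervals for the tested members, the tested let-7 arms of the same clusters and miR-351-5p, from the group-only fit (grey) and the fit with the trial as a block (red); filled points have an edgeR adjusted p under 0.05. Of the members, miR-125a-5p and miR-125b-5p are filled in the blocked fit and none in the group-only fit.

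The loci were compared within each library, where no scaling factor enters. Summed reads of the miR-99b/miR-125a locus were 34075, 22450 and 20285 in induced and 19598, 13398 and 15468 in uninduced libraries. Sums for each locus cover its member arms only, without let-7, and most reads of this one were miR-99b-5p. Those of both other loci with miR-125b-5p came to 313 reads over the induced and 382 reads over the uninduced libraries. The miR-99b/miR-125a locus thus had 310, 231 and 191 times the reads of the others in induced trials 1, 2 and 3, against 154, 103 and 124 times in uninduced cells. Every induced ratio exceeded every uninduced one. Of all tested single microRNAs, 27.6% had groups that did not overlap, and the share for ratios was not computed. The mean log2 ratio was 7.90 ± 0.35 in induced and 6.96 ± 0.29 in uninduced cells (SD, n = 3 each), a difference of 0.93, and by trial 1.00, 1.17 and 0.63.

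Against the arms that belong to 1 locus alone, the miR-99b/miR-125a locus had a log2 ratio higher in induced cells by 1.24 over the miR-99a/miR-125b-2 arms (1.45, 1.40 and 0.88 by trial) and by 0.73 over the miR-100/miR-125b-1 arms (0.84, 0.68 and 0.68 by trial). The miR-99a/miR-125b-2 arms rested on 27 induced and 42 uninduced reads in all, and the miR-100/miR-125b-1 arms on 207 and 221 reads, nearly all of miR-100-5p. In scaled level, the miR-99b/miR-125a locus had 2830, 2517 and 1490 CPM in induced and 2092, 1489 and 1416 CPM in uninduced libraries. The other loci together had 9.13, 10.9 and 7.78 CPM in induced and 13.6, 14.4 and 11.4 CPM in uninduced libraries. In each trial the miR-99b/miR-125a level was higher in induced cells, with log2 differences of 0.44, 0.76 and 0.07. The sum of the others was lower in each trial, with log2 differences of -0.57, -0.41 and -0.56. Taken apart, the miR-100/miR-125b-1 arms were lower in trials 1 and 3 but not in trial 2 (-0.40, 0.08 and -0.61 by trial). The miR-99a/miR-125b-2 arms (-1.04, -0.67 and -0.83) and miR-125b-5p (-0.74, -1.40 and -0.36) were lower in each trial. No p is given for these sums, since 3 libraries against 3 cannot give an exact permutation p below 0.10 and the sums run over the members themselves.

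Ratios of single microRNAs were tested for 6 pairs, chosen after the data were seen. Their exact permutation p-values leave out the pairing by trial. A paired sign-flip test over the 3 trials cannot give a p below 0.25. It gave a sign-flip p of 0.25 for each ratio except miR-99b-5p to miR-125a-5p (sign-flip p = 0.75). miR-99b-5p had 381, 274 and 273 times the reads of miR-100-5p in induced libraries, against 231, 174 and 160 times in uninduced libraries, a log2 difference of 0.72 with 0.72, 0.65 and 0.78 by trial (exact two-sided permutation p = 0.10, adjusted 0.15). miR-125a-5p had 278, 297 and 141 times the reads of miR-125b-5p in induced and 108, 74.2 and 96.8 times in uninduced libraries, a log2 difference of 1.30 with 1.37, 2.00 and 0.54 by trial (exact two-sided permutation p = 0.10, adjusted 0.15). For both pairs the groups were separate, but how often other pairs of microRNAs separate the groups was not computed. Within the miR-99b/miR-125a locus, miR-99b-5p had 3.06, 3.17 and 3.63 times the reads of miR-125a-5p in induced and 3.63, 2.74 and 3.97 times in uninduced libraries. The log2 difference was -0.05, with -0.25, 0.21 and -0.13 by trial (exact two-sided permutation p = 0.90).

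let-7e is the hairpin between miR-99b and miR-125a. let-7e-5p, of the family that restrains proliferation, had 70.3 to 129 CPM in induced and 95.8 to 135 CPM in uninduced libraries, a log2 fold change of -0.12 (SE 0.23; edgeR adjusted p = 0.819). Against it, miR-99b-5p had 16.5, 15.3 and 16.6 times the reads in induced and 13.4, 8.05 and 11.7 times in uninduced libraries. The log2 difference was 0.57, with 0.30, 0.92 and 0.50 by trial. miR-125a-5p had 5.38, 4.81 and 4.56 times the reads of let-7e-5p in induced and 3.70, 2.94 and 2.96 times in uninduced libraries, a log2 difference of 0.62 with 0.54, 0.71 and 0.62 by trial. Both ratios separated the groups (exact two-sided permutation p = 0.10 and adjusted 0.15 for each), again with no share over other pairs to set beside them. let-7e-3p, the minor arm, had 4.57, 2.69 and 1.40 CPM in induced and 0.96, 1.78 and 1.65 CPM in uninduced libraries and a log2 fold change of 0.96 (SE 0.45; edgeR adjusted p = 0.251). That change was 0.43 without induced replicate 1 and 0.18 in the blocked fit without trial 1. It made up 2.49% ± 0.811 of the let-7e reads in induced and 1.26% ± 0.455 in uninduced cells (SD, n = 3 each).

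Of the 6 let-7 arms that these clusters hold, 4 were tested. With the group alone 0 passed, against 6.1% of all tested, and with the block 1 was lower, against 11.0%. That was let-7a-5p (-0.44, SE 0.11; edgeR adjusted p = 0.0505 and, blocked, 0.00344), with 5258, 5492 and 5558 CPM in induced and 7019, 8317 and 6716 CPM in uninduced libraries. let-7c-5p had a log2 fold change of -0.20 (SE 0.14). Both are also made from hairpins outside these clusters. The arms that mark the cluster copies, let-7a-2-3p and let-7c-1-3p, had 0 reads in all 6 libraries, so the levels of let-7a-5p and let-7c-5p cannot be credited to the miR-100/miR-125b-1 and miR-99a/miR-125b-2 loci.

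**Figure D4:**
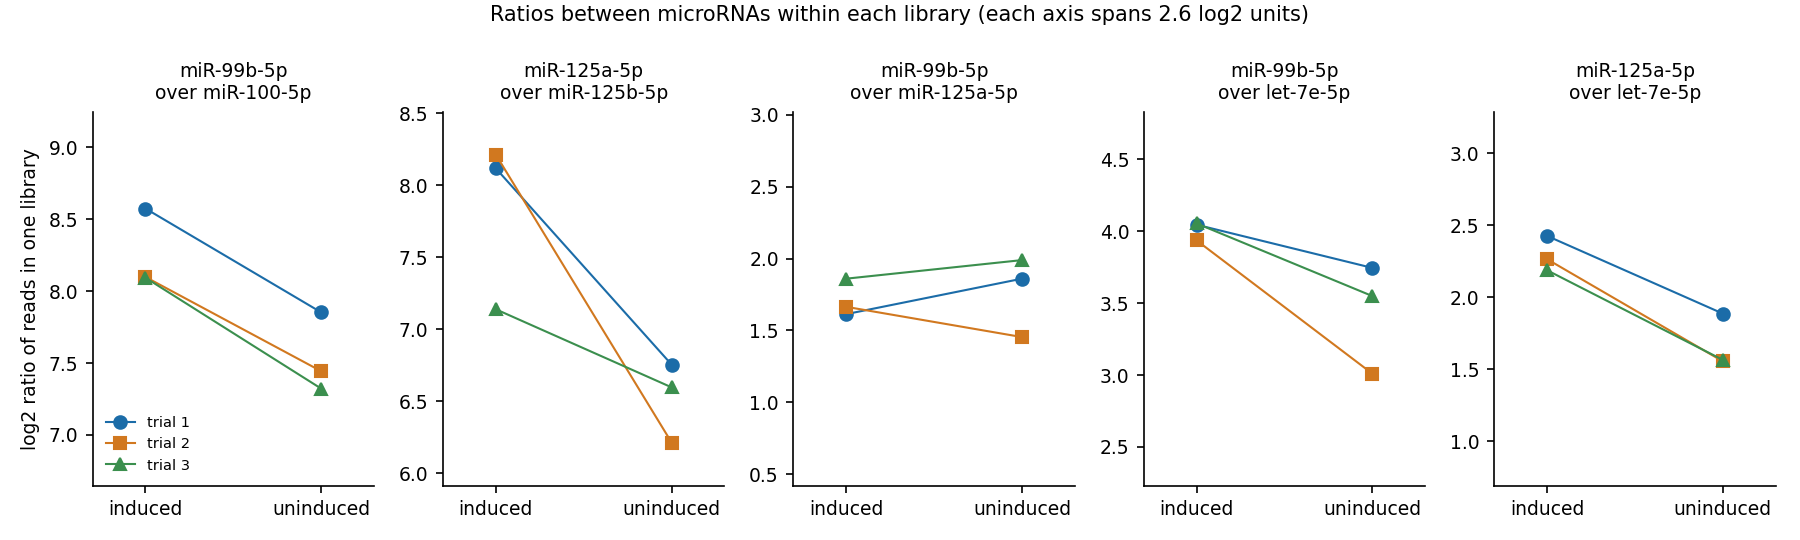
Log2 ratio of reads between pairs of microRNAs in the same library (vertical axes, each spanning the same log2 range), for induced and uninduced libraries; coloured lines join the libraries of a trial. miR-99b-5p over miR-100-5p and miR-125a-5p over let-7e-5p are higher in induced cells by 0.72 and 0.62 on average, with nearly parallel lines, and miR-99b-5p over miR-125a-5p differs by -0.05. The ratio of miR-351-5p to miR-125a-5p is not drawn.

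Grouped by seed, the miR-99/100 family was almost wholly miR-99b-5p, which gave 99.7% ± 0.0687 of its level in induced and 99.4% ± 0.102 in uninduced cells (SD, n = 3 each). Its sum was 2124, 1911 and 1168 CPM in induced and 1638, 1090 and 1132 CPM in uninduced libraries, which overlapped. The miR-125 seed was shared by miR-351-5p, from the X-linked miR-322 cluster, and by miR-6367 and miR-6394, which had 0 reads. miR-351-5p had 2004, 2206 and 1801 CPM in induced and 940, 901 and 1010 CPM in uninduced libraries, and it passed (log2 fold change 1.08, SE 0.12; edgeR adjusted p = 0.00074). The summed level of the seed was 2699, 2808 and 2123 CPM in induced and 1394, 1303 and 1296 CPM in uninduced libraries, with every induced library above every uninduced one.

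Of the mean difference of 1213 CPM in that sum, miR-351-5p made 1053 CPM and miR-125a-5p 161 CPM, while miR-125b-5p made -1.88 CPM. The share of miR-125a-5p in the seed family was 25.7%, 21.4% and 15.1% in induced and 32.2%, 30.4% and 21.9% in uninduced libraries, lower in every trial although its own level was higher. The ratio of miR-351-5p to miR-125a-5p differed by 0.61 on the log2 scale between the groups, which overlapped (exact two-sided permutation p = 0.20, adjusted 0.24). The share of miR-125b-5p was 0.0905% ± 0.0177 in induced and 0.311% ± 0.0924 in uninduced cells (SD, n = 3 each). That difference in share holds the higher sum of the seed family as well as the lower level of miR-125b-5p. The sum averaged 2544 CPM in induced and 1331 CPM in uninduced cells, and miR-125b-5p averaged 2.26 and 4.14 CPM.

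**Figure D5:**
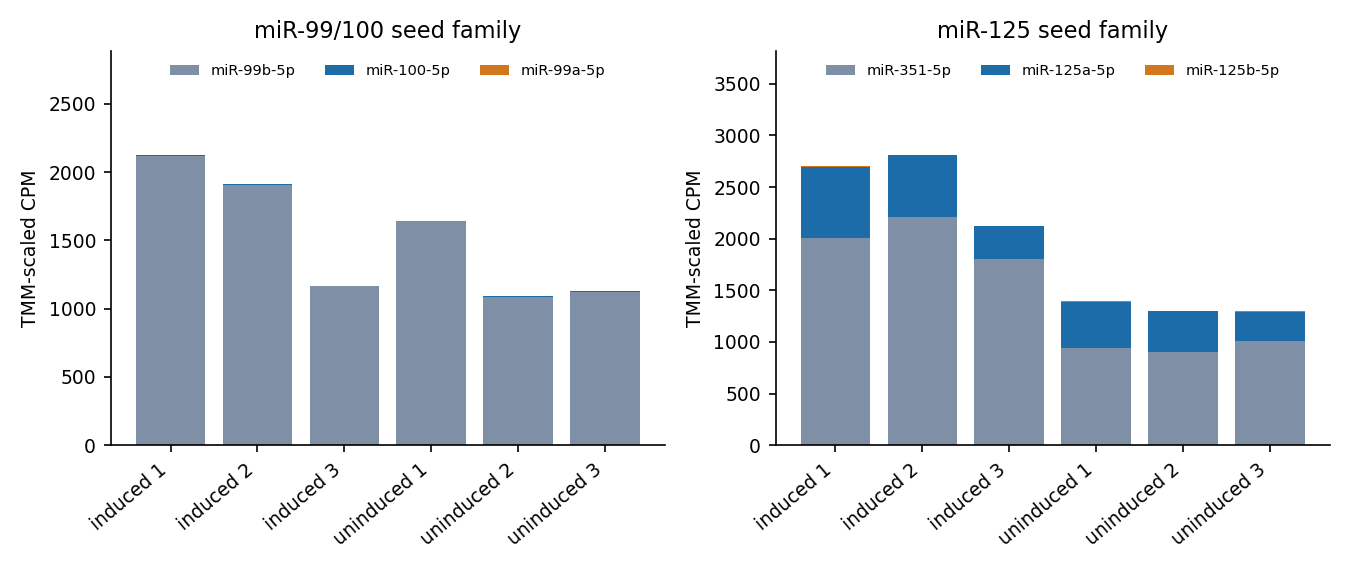
Stacked TMM-scaled CPM (vertical axes, from 0) of the microRNAs that share the miR-99/100 seed (left) and the miR-125 seed (right), by library, induced libraries first; the slices of miR-100-5p, miR-99a-5p and miR-125b-5p are too thin to see well. The miR-125 seed sums are 2123 to 2808 CPM in induced and 1296 to 1394 CPM in uninduced libraries, most of it miR-351-5p.

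Of 13 other microRNAs listed as associated with progenitors, 11 were tested. With the group alone 0 were higher and 1 was lower, against 3.43% higher and 2.67% lower of all tested. With the block 1 was higher, miR-146a-5p (0.56, blocked edgeR adjusted p = 0.0373), and 3 were lower, miR-10b-5p, miR-181a-5p and miR-221-3p. The shares of all tested were then 10.7% higher and 11.0% lower. The list's median log2 change was -0.17, and that of all tested 0.02. The call made in both fits was miR-10b-5p, a Hox-cluster microRNA, at 17.2, 18.7 and 16.2 CPM in induced and 95, 76.2 and 71.1 CPM in uninduced libraries (log2 fold change -2.22, SE 0.16; edgeR adjusted p = 2.39e-05). miR-10a-5p, also a Hox-cluster microRNA of the list, lay the other way and passed in neither fit. Its log2 fold change was 0.58 (SE 0.26, edgeR adjusted p = 0.237 and, blocked, 0.104). miR-126a-3p, a stem cell and endothelial microRNA, had a log2 fold change of 0.04 (SE 0.14), and miR-155-5p one of -0.20 (SE 0.13). miR-99a, miR-100 and miR-125b are also made in stromal cells. Of the 5 stromal markers 3 were tested. With the group alone 1 was lower, miR-199a-3p, and with the block 3, against 2.67% and 11.0% of all tested. The markers summed to 145 to 215 CPM in induced and 230 to 270 CPM in uninduced libraries, and miR-214-3p had 0 reads. Their part in the miR-125b-5p result was not tested.

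The microRNAs whose levels were most like the members' over the 6 libraries were found among 321 others with at least 10 CPM on average. They were miR-326-3p and miR-22-5p for miR-125a-5p (Pearson r of log2 CPM 0.981 and 0.940) and miR-326-3p and miR-185-5p for miR-99b-5p (0.908 and 0.886). For miR-125b-5p they were miR-5099 and miR-331-3p (0.973 and 0.954), and for miR-100-5p miR-378d and miR-378a-3p (0.911 and 0.891). Among the members, r was 0.92 between miR-99b-5p and miR-125a-5p but -0.25 between miR-125a-5p and miR-125b-5p. These points share libraries, scaling and the group difference, and no p is given for them. The partners named had the highest of 321 r values over 6 libraries, so some high r is likely without any link. For miR-125b-5p, r rested on 18 to 48 reads per library.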

How the data were processed

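The small RNAs of 3 induced and 3 uninduced iBN samples were analysed. Per the labels' protocols, the miRNeasy mini kit gave the RNA and the TruSeq small RNA kit the libraries. The submitters' processing notes name mm10 (the GRCm38 assembly), Trim Galore (0.4.0) and a DESeq2 given as 2.1.8.0. The series' design text names miRBase as the alignment target; its release, the counter and how multiple matches were handled are not stated in what was used. The authors deposited raw read counts for 2061 entries (1915 mature names). The deposited CPM values equal those counts divided by the library's sum, within 0.005, and were used only for that check.

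Names with several entries (83) kept their most abundant entry, which left out 17.5% of reads. The main test was edgeR (4.0.16, under R 4.3.3; TMM, filterByExpr, robust glmQLFit, glmQLFTest, two-sided, Benjamini-Hochberg over all 525 tested names at 0.05), with DESeq2 1.42.0 and limma 3.58.1 as alternatives; SEs were taken from the quasi-F statistic. Simulated data were used to check the fits. Locus ratios are of summed reads plus 0.5 on the log2 scale, and no p is given for these sums over members. After removal of group means, libraries of the same trial correlated by 0.33, 0.45 and 0.53 over microRNAs, each best with its own trial. The trial numbers, taken from the labels, were therefore treated as pairing in the blocked fits and the per-trial differences. The main test and the exact permutation tests left the pairing out. Named were all members, the let-7 arms of their clusters, microRNAs with a member's seed, lists, and the 2 most alike in level per tested 5p arm. Members, lists and ratios were chosen with earlier results of these data known. Mature sequences matched 1623 of the 1915 names, and all 11 members.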

Additional observations from a re-analysis of the deposited data

How the results depend on the processing

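The number of microRNAs past edgeR's threshold, 32 with the group alone, was 114 with the replicate block, and 2 members passed with it against 0 without. With the block and trial 1, 2 or 3 left out, 66, 60.0 and 12 microRNAs and 1, 0 and 0 members passed. Leaving out 1 library without the block gave 12 to 41 microRNAs and 0 to 1 members, and limma-voom gave 20 microRNAs. The member that passed without uninduced replicate 3 was miR-125b-5p (-1.06), and the one without trial 1 in the blocked fit was miR-99b-5p (0.43). Among the results recomputed, signs turned for none past the threshold: miR-99b-3p (-0.10 without induced replicate 1 and without trial 1 in the blocked fit, up to 0.57 without induced replicate 3), miR-125a-3p (-0.11 without induced replicate 1, up to 0.70 without induced replicate 3), let-7e-5p (0.07 without induced replicate 3, down to -0.27 without induced replicate 1 and -0.28 without trial 1 in the blocked fit) and the ratio of miR-99b-5p to miR-125a-5p (0.06 without uninduced replicate 3, down to -0.21 without uninduced replicate 2); the causes were not tested. The 3 locus differences kept their direction in all 11 alternatives each, and so did the other 5 ratios in the alternatives added after the data were seen. Most of these outcomes were fixed in advance. The paired per-trial mean equals the main difference in a balanced design. Where every induced ratio exceeds every uninduced one, leaving out 1 library cannot turn the sign. Among the members, the choice of entry changed only miR-125b-5p. miR-99a-5p, miR-100-3p and both 3p arms of miR-125b are limited by depth.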
